A study of Mus musculus with 3 samples.

Results

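Sequences of 26 to 31 nt that begin with A, C or G were examined among the small RNAs of the adult testis of CD1 mice, an outbred laboratory strain. Each had a count of 10 or more in the testis library. None matched the tRNA, microRNA and ribosomal RNA references used, with up to 1 substitution or a deletion of 1 to 3 bases. These references did not hold all of the ribosomal RNA. The rule found 16268 sequences, called non-U sequences below, of the 2592365 distinct sequences in testis and the 4182219 in the series. The series holds 1 library each of adult testis, adult uterus and mature sperm of the same strain. The sperm came from the cauda epididymis, where mature sperm are stored, after treatment with a buffer meant to lyse somatic cells; no other treatment or genotype is given for any group. With 1 library per group no difference below has a replicate check, no test between groups was made, and the exact 95% intervals given cover no more than counting error, as PCR copies of 1 molecule cannot be told apart. The tables write T for U, and the letters below follow them.

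PIWI-interacting RNAs (piRNAs) are small RNAs of the germ line that guide PIWI proteins to transposon and other transcripts. Primary piRNAs are cut from long single-stranded precursors and mostly begin with U. In the ping-pong cycle a PIWI protein guided by such a piRNA slices a transcript of the opposite strand opposite guide bases 10 and 11, so the new piRNA overlaps its guide by 10 bases at the 5′ ends and tends to carry A at base 10, facing the guide's initial U. In adult mouse testis most piRNAs belong to the pachytene class, which comes from long noncoding precursors and is loaded on MILI and MIWI, with the MIWI-bound forms the longer ones.

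Depth was 23783785 reads for the testis, 15690722 for the sperm and 15876066 for the uterus library. Where no read was seen, up to 3 counts remain possible, or 0.191 reads per 1000000 (RPM) in sperm and 0.189 RPM in uterus. The listed gonad microRNA miR-202-5p was at 105 RPM in testis, 0.127 RPM in sperm and 0 reads in uterus. Of 11 listed cell type microRNAs found in the sequence table, the epithelial miR-200c-3p was at 2298 RPM in sperm, 87.2 RPM in uterus and 0.420 RPM in testis, and the erythroid miR-451a at 75.9 RPM in uterus. The leukocyte miR-142a-3p had 79 reads in sperm, 15 in uterus and 0 in testis. The 4 germ cell microRNAs differed in direction: miR-465a-5p was at 95.3 RPM in sperm and 9.12 RPM in testis, miR-881-3p at 59.5 and 56.3 RPM, miR-34b-5p at 3.06 and 62.4 RPM, and miR-449a-5p at 2.49 and 37.5 RPM. The part of other cell types in the levels given below for sperm was not tested.

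The 8 members below, all placed on an annotated transcript, were picked from the leading members of genes named below. They are shown first because they carry the features described below: the first base is not U, and base 10 is A in many of the abundant ones. Leading members not shown are those of Gm21269, Zfp389 and Gm48474, without A at base 10, and of 4933440M02Rik and Gm5878, with it. The number with A at base 10 in this display is therefore not a share. Capitals mark base 1 and base 10. The first 6 have A at base 10 and the last 2 do not.
Gm18609 antisense: CagaactgtAgggtaagaaactaggaaggc
Zfp445 antisense: GtttattgtAgataaaagggacagcata
Gm48157 sense: GagcaggacAatatgagaatcaatgctgaa
Gm49794 sense: AaggaagacActctgagtctatggcagtgc
D130017N08Rik sense: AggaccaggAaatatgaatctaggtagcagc
Piwil2 sense: GtgaaagacAtgtagaaaaaccagcgtagg
Stox1 antisense: GtttcagacCatgggtcttctgaacggcgt
1700001L05Rik sense: AtcttctctTgggactgtagactggttgc

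The non-U sequences were a small part of the piRNA-length class. They made up 10.2% (10.03 to 10.33%) of the 159774 sequences of any first base under the same rule and 6.54% of their reads, and held 1123734 reads, or 4.72% of the testis library. The other 143506 sequences began with U and held 16064192 reads. The median count was 19 among the non-U sequences and 24 among the U-start sequences. Among the non-U sequences A was the most frequent first base with 40.4% of sequences and 46.7% of reads, followed by G with 31.6% of sequences and 22.3% of reads and C with 28.0% of sequences and 31.04% of reads.

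The reference match had removed 204 sequences with 10123 reads, of which 85 matched tRNA, 37 microRNA and 82 ribosomal RNA. At the edge of the count rule, 1634 sequences had exactly 10 reads and 40.8% of them carried A at base 10; just outside it, 1986 sequences had 9 reads and 38.4% carried it. Beyond the length limits lay 439 sequences of 25 nt and 1208 of 32 nt with the same first bases, counts and lack of matches.

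A at base 10, which the choice of sequences did not use, was more frequent in the non-U sequences than in the U-start sequences. It was present in 6742 non-U sequences, 41.4% (40.7 to 42.2%), and in 46542 U-start sequences, 32.4% (32.2 to 32.7%). By reads the gap was wider: 59.4% of the non-U reads and 34.2% of the U-start reads had A at base 10. The share differed little by first base, with 42.0% (40.8 to 43.2%) for A, 43.0% (41.6 to 44.5%) for C and 39.3% (38.0 to 40.7%) for G.

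The share with A at base 10 was higher among the more abundant non-U sequences, while in U-start sequences it was between 31.9% and 33.8% at every count. Of the 8541 non-U sequences with 10 to 19 reads 40.5% (39.5 to 41.6%) had A at base 10, of the 954 with 100 or more but under 300 reads 45.1% (41.9 to 48.3%), and of the 108 with 1000 or more reads 62.0% (52.2 to 71.2%). The last of these counts several lengths of the same molecule. Counted as distinct 5′ starts, defined by the first 20 bases, 39.7% of the 7581 starts that had no form with more reads 1 substitution away had A at base 10, against 51.2% (42.1 to 60.3%) of the 123 such starts with 1000 or more reads and 14 of the 18 with 5000 or more. Among U-start sequences 32.2% (27.9 to 36.6%) of the 463 starts with 5000 or more reads had A at base 10. The share of sequences without an initial U went the other way, from 12.6% (12.3 to 12.8%) at 10 to 19 reads to 4.60% (3.79 to 5.53%) at 1000 or more.

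**Figure D1:**
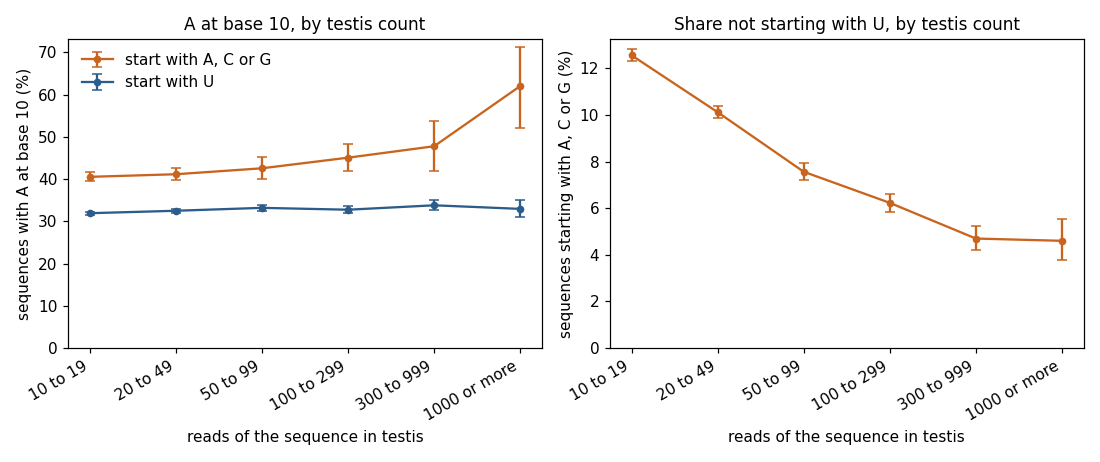
Left, the percentage of testis sequences with A at base 10 in classes of testis count (x axis, reads of the sequence), for sequences that start with A, C or G and for those that start with U; right, the percentage of piRNA-length sequences in each class that start with A, C or G. Points are shares and bars exact 95% intervals; the non-U share with A at base 10 goes from 40.5% to 62.0%, while the share of non-U sequences goes from 12.6% to 4.60%.

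Base 10 was not the only position at which the composition differed. Among distinct 5′ starts A stood at base 2 in 44.2% of non-U and 28.0% of U-start sequences, and at base 5 in 46.0% and 41.3%. At base 10 the values were 40.1% and 32.2%, while at the flanking bases 9 and 11 they were 28.6% and 28.96%, and 32.9% and 31.5%. G at base 3 was present in 35.3% of non-U and 24.6% of U-start starts. From base 13 to base 20 the share of A was between 31.3% and 35.0% in non-U and between 29.3% and 31.3% in U-start sequences.

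**Figure D2:**
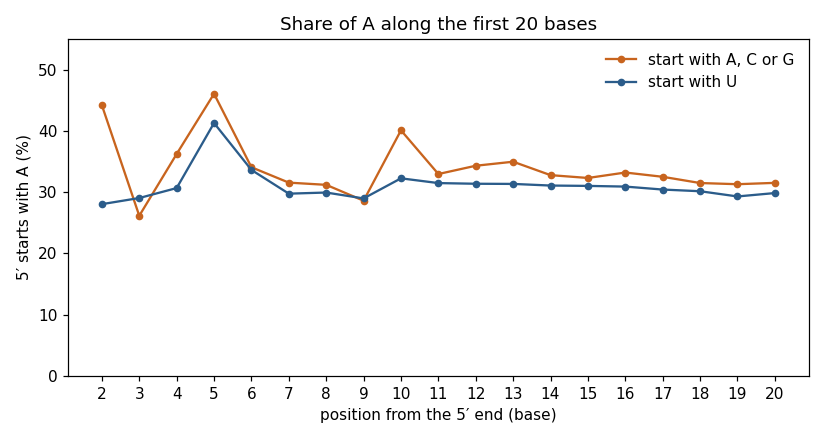
The percentage of distinct 5′ starts with A (y axis) at each position from base 2 to base 20 (x axis), for testis sequences that start with A, C or G and for those that start with U. The 2 lines lie farthest apart at base 2 (44.2% and 28.0%) and separate again at base 10 (40.1% and 32.2%), with values closer to each other at bases 9 and 11.

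The letters TGTAG at bases 7 to 11 recur in several of the most abundant sequences, a pattern noticed after their values were seen. Over all non-U starts with A at base 10, 2.92% had these letters there, against 1.43% of U-start starts with A at base 10. Without starts 1 substitution away from a form with more reads the shares were 1.89% (1.44 to 2.45%) and 1.37% (1.19 to 1.56%), with intervals that overlap. Searched on the strand as sequenced and anywhere in the first 20 bases, TGTAG occurred in 6.35% of all non-U and 4.79% of all U-start starts.

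Lengths peaked at the same value in all groups, while the shares of longer and shorter forms differed somewhat. The most frequent length was 30 nt, with 32.9% (31.8 to 34.0%) of non-U sequences with A at base 10, 31.2% (30.3 to 32.2%) of those without and 30.97% (30.7 to 31.2%) of U-start sequences. Sequences of 29 to 31 nt made up 76.1%, 72.1% and 74.2% of these groups, and those of 26 to 27 nt, the size usual for MILI-bound piRNAs, 14.0%, 17.3% and 15.1%. The non-U sequences with A at base 10 had the lowest share of short forms of the 3 groups. By reads, 87.0%, 80.5% and 84.2% were of 29 to 31 nt.

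The 10 most abundant non-U sequences with A at base 10, leaving out further length forms of one already taken, had between 3973 and 48457 testis reads, with a median of 5427. Their sperm reads ran from 7 to 2874, with a median of 101.5, and none had a uterus read. The leading sequence, of 30 nt with C first, had 48457 testis reads against 116 in sperm, that is 2037 RPM and 7.39 RPM, a sperm to testis ratio of 0.00363 (0.00300 to 0.00435). The next, of 30 nt with A first, had 32005 testis reads against 18 in sperm, a ratio of 0.000852 (0.000505 to 0.00135). The one after it, of 31 nt with A first, had 20906 testis and 977 sperm reads, a ratio of 0.0708 (0.0664 to 0.0755). None of these 3 matched an annotated transcript, so their place in the genome is not known and their letters are not shown. With the nested length forms added, the first 2 had 105925 and 103247 testis reads.

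The 10 leading sequences without A at base 10 were lower, with between 2386 and 5541 testis reads and a median of 2971.5. They had from 1 to 309 sperm reads with a median of 63, and no uterus reads. The ranges of the 2 sets in testis overlap, but the highest sequence without A at base 10 lay below 5 of the 10 with it. Only 2 of these 20 sequences matched an annotated transcript.

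Most non-U sequences had no exact match to an annotated transcript. Transcripts alone were searched, not the genome, so a lack of match does not mean that no gene lies there. An exact sense match to a GENCODE transcript was found for 10.9% (10.4 to 11.4%), an antisense match alone for 2.26%, and no match for 86.9%. Sense matches were similar with A at base 10, 11.4% (10.6 to 12.2%), without it, 10.5% (9.91 to 11.2%), and in U-start sequences, 10.99% (10.8 to 11.2%). Of the 1770 sense matches, 965 were to lincRNA genes and 587 to protein-coding genes. Small nucleolar RNA genes took 26 of the 1002 matches without A at base 10, 3 of the 768 with it and 9 of the 15773 in U-start sequences.

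The genes with most non-U reads in sense were mainly lincRNAs that gave far more U-start reads. Gm49794 (chr17:27354111-27367492, plus strand, GRCm38) had 142 non-U sequences with 7474 reads, 66.6% of them with A at base 10, beside 129953 U-start reads. Gm21269 (chr7:73816546-73838898, plus strand) had 145 with 5905 reads, 20.7% with A at base 10, beside 191457 U-start reads. 1700001L05Rik on chromosome 15 had 5000 non-U reads, 9.80% with A at base 10, 4933440M02Rik on chromosome 7 had 4953 with 69.1%, D130017N08Rik on chromosome 5 had 4493 with 57.2%, and Gm5878 on chromosome 6 had 3099 with 38.6%. Non-U reads were 2.99 to 14.7% of the piRNA-length sense reads in these 6 lincRNAs. The share of reads with A at base 10 therefore differed widely from gene to gene, and single sequences weigh heavily in it. The leading sequence held 30.5% of the non-U reads of Gm49794 and 45.8% of those of D130017N08Rik. By sequences the genes lay closer together. A at base 10 was present in 54 of 142 for Gm49794, 55 of 145 for Gm21269 and 17 of 55 for 1700001L05Rik. It was present in 21 of 53 for 4933440M02Rik, 13 of 26 for D130017N08Rik and 32 of 87 for Gm5878.

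In 2 pseudogenes the non-U reads outnumbered the U-start reads. Gm48157, a processed pseudogene at chr14:19646670-19647054, had 3848 non-U and 253 U-start reads, so that 93.8% of its reads were non-U. All 5 of its non-U sequences shared 1 start with A at base 10, shown above, whose leading form (chr14:19646866-19646895, minus strand) had 2482 testis reads and 0 in sperm and uterus, at least 546-fold lower in sperm. Zfp389 on chromosome 13 had 2760 non-U and 914 U-start reads, and 69.6% of the non-U reads had A at base 10.

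On the antisense strand of annotated genes 4 loci led. Gm18609, a processed pseudogene at chr6:128185277-128188877, had 28 non-U sequences with 17812 reads antisense, 97.9% with A at base 10, beside 17365 U-start reads. Its leading sequence (chr6:128185744-128185773, minus strand, in an exon of the noncoding transcript) had 9672 reads in testis, 2874 in sperm and 0 in uterus, that is 407 RPM against 183 RPM, a sperm to testis ratio of 0.450 (0.432 to 0.470). It had no U-start neighbour with a shifted 5′ end and 31 reads of a form with T at base 1.

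Zfp445 encodes a KRAB zinc finger protein that takes part in the upkeep of genomic imprints. Its 4 antisense non-U sequences had 6168 reads, all with A at base 10 and all of 1 start, and the leading one (chr9:122844544-122844571, plus strand, against the 3′ UTR) had 3726 testis reads, 45 sperm reads and 0 uterus reads. The U-start sequences that matched Zfp445 antisense exactly held 1234 reads, so 83.3% of the matched reads were non-U. By shared letters alone, U-start sequences with 5′ ends shifted by up to 5 bases held 316877 reads, and the one shifted 2 bases downstream held 125865, the highest count of any U-start sequence; where in the genome those arise is not known. Stox1, a winged-helix gene, had 17 antisense sequences with 4089 reads, 9.56% with A at base 10, and its leading sequence (chr10:62665231-62665260, plus strand, against a coding exon) had 2939 testis, 83 sperm and 0 uterus reads. The processed pseudogene Gm48474 on chromosome 10 had 15 with 4732 reads, 0.845% with A at base 10. By reads, the leading antisense loci thus split into 2 with nearly all and 2 with few of the A at base 10 kind. Single sequences weigh heavily here too: the leading one held 54.3% of the non-U reads of Gm18609 and 71.9% of those of Stox1. By sequences, A at base 10 was present in 9 of 28 for Gm18609 and 4 of 4 for Zfp445. It was present in 2 of 15 for Gm48474 and 7 of 17 for Stox1.

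Among the lists of genes that were counted, the genes of the piRNA pathway had 1 of 19 annotated members with a sense non-U sequence, Piwil2, which encodes MILI. Its 5 non-U sequences held 2276 reads against 588 U-start reads. The leading one (chr14:70373601-70373630, minus strand, in the 3′ UTR) had 1324 reads in testis, 67 in sperm and 0 in uterus, with a sperm to testis ratio of 0.0767 (0.0591 to 0.0981). Of 22 spermatid and sperm genes, which include the protamines and transition proteins, 0 had a sense non-U sequence and 1 had a U-start sequence. Of 84 ribosomal protein genes 4 had one, with 66 reads in all. Over all 21924 protein-coding genes the shares were 1.56% for non-U and 6.28% for U-start sequences.

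Most non-U sequences shared their letters with a U-start sequence of shifted 5′ end. Such neighbours were found from shared letters, not from positions, so they need not come from the same place in the genome. A U-start sequence of any count whose 5′ end was shifted by 1 to 5 bases, or which differed at base 1 alone, was found for 88.8% (88.3 to 89.2%) of non-U sequences, against 90.4% (90.3 to 90.6%) of U-start sequences. The share was 87.9% (87.1 to 88.7%) with A at base 10 and 89.4% (88.7 to 89.98%) without it. Upstream neighbours within 5 bases were found for 75.8% and downstream ones for 62.0%. The offsets with the most neighbours were 3, 1 and 2 bases upstream, with 33.5%, 32.1% and 31.05% of non-U sequences.

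**Figure D3:**
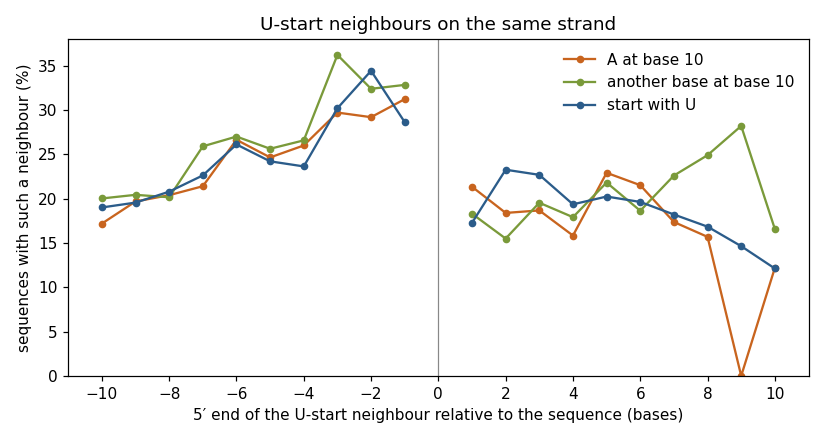
The percentage of testis sequences (y axis) that have a U-start neighbour on the same strand whose 5′ end lies at each offset (x axis, bases, negative upstream), for non-U sequences with A at base 10, for those with another base there and for U-start sequences. All 3 lines are highest 1 to 3 bases upstream; the line for A at base 10 is at 0 at 9 bases downstream because a neighbour there needs T at base 10.

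A downstream neighbour can exist only where the sequence itself has T at that base, so the downstream values were also taken among sequences with T there. Of non-U sequences with T at base 2 96.3% had a U-start neighbour beginning at it, and of those with T at base 6 82.2% (81.0 to 83.3%). At base 10 the share was 69.2% (67.7 to 70.7%), against 55.8% (55.3 to 56.3%) in U-start sequences. Most positions with T in the first 10 bases were thus the start of some other read.

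The forms that differ at base 1 alone were few. They existed for 5.93% of non-U sequences, and for 82 sequences, 0.504% (0.401 to 0.625%), the T form had at least as many reads. With a change at any base, base 1 included, 13.2% of non-U sequences, with 10.98% of the non-U reads, differed by 1 substitution from a sequence of the same length with more reads. For 684, or 4.205%, that form had at least 10 times the reads. The leading U-start neighbour ended at the same 3′ base as the non-U sequence in 15.5% (14.9 to 16.1%) of cases, against 11.4% (11.2 to 11.6%) for U-start sequences.

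The reads of a start were also set against those of all its U-start neighbours within 5 bases together. The start was counted here over its non-U sequences alone, which gives fewer starts of 1000 or more reads than the count over all reads of 26 to 31 nt used for base 10. Of all 7765 non-U starts 31.7% (30.7 to 32.8%) had more reads than their neighbours, against 49.4% (48.999 to 49.9%) of the 50250 U-start starts. Among starts of 1000 or more reads, a choice that raises the share by itself, the values were 69.4% (60.4 to 77.5%) of 121 and 74.2% (72.5 to 75.9%) of 2703, with intervals that overlap. With A at base 10 the share of all starts was 35.3% (33.6 to 37.0%), and without it 29.4% (28.1 to 30.7%). Single neighbours with at least as many reads as the sequence itself were found for 63.6% of non-U sequences in all and for 15.7% of those with 1000 or more reads, where the value for U-start sequences was 18.9% (17.3 to 20.6%), within the interval of the former.

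The most abundant non-U sequence without any such neighbour, of 30 nt with A first and G at base 10, had 4093 reads in testis, 135 in sperm and 0 in uterus. The next had 1101, 0 and 0 reads, with at least 242-fold less in sperm. A form of this kind in Kat7, the gene of a histone acetyltransferase, had 559 testis and 2 sperm reads (chr11:95289788-95289815, minus strand, coding exon).

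The overlap of 5′ ends on opposite strands, which bears on ping-pong processing, could be examined for the 2138 non-U sequences on annotated transcripts. A perfectly matched U-start partner that overlaps by a given number of bases needs A at that base, so each overlap was read among the sequences that have A there. At 10 bases, 88 of the 908 non-U sequences with A at base 10 had a U-start partner on the other strand, 9.69% (7.85 to 11.8%). At the other overlaps from 2 to 25 bases the share was between 0.619% and 5.23%, with a median of 2.86%, and the highest, at 3 bases, had an interval of 3.55 to 7.38%. For the 19128 U-start sequences on transcripts the share at 10 bases was 5.36% (4.81 to 5.95%), and at the other overlaps 0.859 to 2.20%, with a median of 1.21%. By sequences, the overlap of 10 bases had the highest share in both groups. Non-U sequences had the higher median at the other overlaps too. By reads in place of sequences their share at 10 bases was 5.76%, and read shares at the other overlaps were not taken. The 88 paired non-U sequences at 10 bases held 3989 reads, while 9 at 6 bases held 3623.

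**Figure D4:**
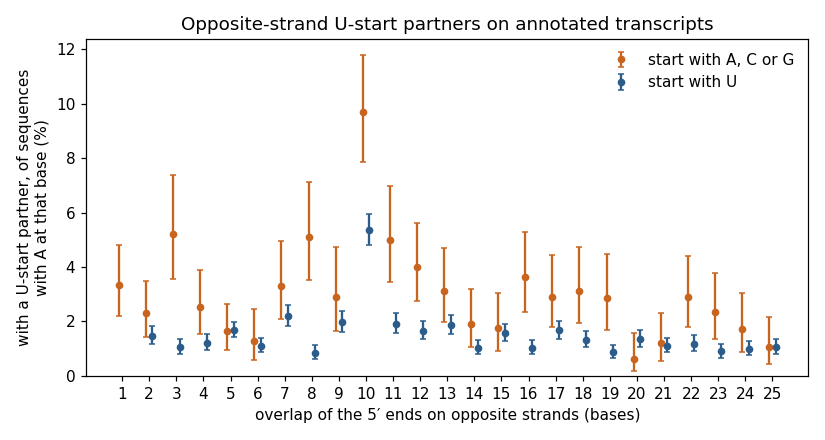
The percentage of testis sequences with A at a given base that have a U-start partner on the opposite strand of an annotated transcript (y axis), by the number of bases by which the 5′ ends overlap (x axis), for sequences that start with A, C or G and for those that start with U. Points are shares and bars exact 95% intervals; the points at 10 bases, 9.69% and 5.36%, lie above those at every other overlap.

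The 88 paired sequences came from 45 starts and 37 genes, and in 27 of them the partner start held at least as many reads as the non-U sequence. They held 3989 reads, of which 1837 were from 6 sequences of 4933440M02Rik, a lincRNA at chr7:125284025-125349788 on the minus strand. Some pairs lie in repeated sequence: a pair in Gm48161 and one in D10Wsu102e each matched 6 places on annotated transcripts. The 3 leading pairs that lie at 1 place each, apart from one with a partner of 4 reads in Maz, are shown with the 10 paired bases in capitals, since these are the bases that face each other. The first and second pair of 4933440M02Rik lie at chr7:125330672-125330702 (minus strand) and chr7:125330698-125330728 (plus strand), and that of Gm21269 at chr7:73817498-73817526 (minus strand), by the non-U member.
4933440M02Rik sense, non-U: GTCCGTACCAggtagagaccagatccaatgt
its U-start partner: TGGTACGGACtgagaaccacaggagga
4933440M02Rik antisense, non-U: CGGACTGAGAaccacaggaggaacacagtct
its U-start partner: TCTCAGTCCGtaccaggtagagaccagatc
Gm21269 antisense, non-U: CCTGTTGTAActgtgaagataatgatggt
its U-start partner: TTACAACAGGagcaaagaaacttcgacaaa

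In the first pair the non-U sequence had 868 testis and 17 sperm reads, and the partner start held 29 testis reads. The partner form shown had 23 testis and 47 sperm reads. In the second pair the non-U sequence had 287 testis reads and 1 sperm read, against 851 testis reads for the partner start. The pair of Gm21269 had 67 testis reads for the non-U sequence and 19 for the partner start. In testis the non-U sequence was thus the larger partner in 2 of these 3 pairs. In sperm the partner form shown was the larger in the first pair, and those of the other pairs had 0 reads. The first and second pair overlap in position, so they are not separate sites. The leading sequence of Gm18609 and the other 5 placed sequences with A at base 10 shown at the start had no such partner on an annotated transcript, and for the unplaced ones pairing could not be examined.

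At least 1 read in sperm was found for 33.2% (32.5 to 33.9%) of the non-U sequences, against 40.2% (39.9 to 40.4%) of U-start sequences. At like testis count the gap was narrower, with 24.3% (23.4 to 25.3%) against 27.5% (27.2 to 27.9%) at 10 to 19 reads, 35.8% (34.5 to 37.2%) against 38.5% (38.1 to 39.01%) at 20 to 49, and 46.2% (43.6 to 48.8%) against 50.4% (49.7 to 51.1%) at 50 to 99. From 100 to under 300 reads the shares were 60.4% (57.2 to 63.5%) and 62.1% (61.3 to 62.9%), from 300 to under 1000 they were 72.01% (66.5 to 77.1%) and 76.3% (75.2 to 77.4%), and from 1000 on 92.6% (85.9 to 96.7%) and 89.2% (87.8 to 90.5%). The non-U share was the lower one in the first 5 of these classes, and the intervals overlap in the last 3. Detection hardly differed with the base at position 10, at 33.6% (32.4 to 34.7%) with A and 32.96% (32.02 to 33.92%) without.

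The summed level of non-U sequences in sperm was 0.191 (0.190 to 0.192) of that in testis, but few sequences made it up and it depended on the denominator: per reads of 26 to 31 nt without a reference match it was 1.15 (1.14 to 1.15), and counted over all reads that share the first 20 bases 1.04. A set of 669 sequences, 4.11% of the members, had more RPM in sperm or uterus than in testis; they held 74.9% of the non-U sperm reads and 99.6% of the non-U uterus reads, but 1.82% of the testis reads. These sequences were set apart by the level that is compared here, so a lower ratio without them follows from the choice and the values are a description. Without them the ratio of sperm to testis was 0.0489 (0.0483 to 0.0494), with 0.0416 (0.0410 to 0.0422) for A at base 10 and 0.0596 (0.0587 to 0.0605) for other bases. U-start sequences without those higher in sperm or uterus had 0.0567 (0.0566 to 0.0569).

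Of those 669 sequences 32.1% (28.6 to 35.8%) had A at base 10, close to the U-start share. The leading sperm sequence, with 29903 sperm and 51 testis reads, became a tRNA match with 1 further substitution, as did one with 5257 sperm and 10 testis reads. In all, 41 non-U sequences, with 32.5% of the non-U sperm reads, lay 1 further substitution from a tRNA, microRNA or ribosomal RNA match. Of the other leading ones, those with 5552 and 3501 sperm reads matched no reference used here. As 28S ribosomal RNA was not fully among those references, fragments of it can remain among the non-U sequences. Whether these are such fragments was not tested. The Gm18609 sequence came next, with its 2874 sperm reads.

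By a 4-fold rule on RPM, with 3 counts in place of lower values, 45.5% of non-U sequences were lower in sperm, where 53.9% of all sequences of the class were, and 1.03% were higher, where 0.435% of the class were. In uterus 52.2% were lower, against 62.3% of the class, and 1.79% were higher, against 0.237%. The sequences were chosen by their testis count. Most of the 8541 non-U sequences with 10 to 19 testis reads cannot reach the lower side of this rule. For these reasons nothing is read from these shares.

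Among the 108 non-U sequences with 1000 or more testis reads the median ratio of sperm to testis was 0.0137, with 0.0103 for A at base 10 and 0.0273 for other bases, and 0.0110 for the 2240 U-start sequences of that count. The values ran from 0, in 8 non-U sequences without a sperm read, to 1.23. The sequences of D130017N08Rik and 1700001L05Rik shown at the start (chr5:143758437-143758467, plus strand, and chr15:83355337-83355365, minus strand) were among the higher ones, with 2060 testis and 748 sperm reads, a ratio of 0.550 (0.506 to 0.599), and 1814 and 650 reads, a ratio of 0.543 (0.496 to 0.594). That of Gm49794 (chr17:27358903-27358932, plus strand) had 2282 and 281 reads, a ratio of 0.187 (0.164 to 0.211). Sequences of similar testis count therefore differed from one another in sperm by far more than their counting error.

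**Figure D5:**
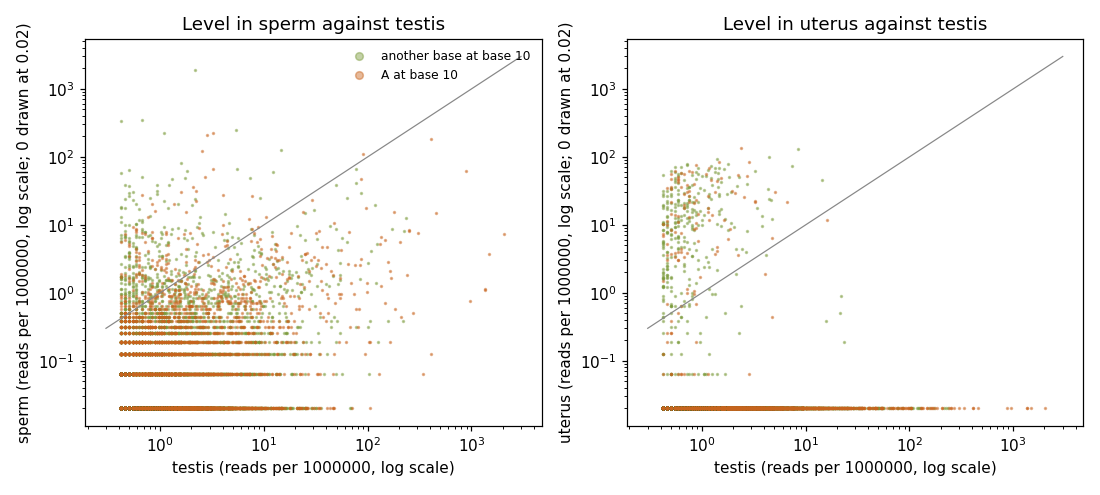
The level of each non-U sequence in sperm (left) and in uterus (right), in reads per 1000000 on a log axis, against its level in testis, with A at base 10 and other bases in different colours; the grey line marks equal levels and sequences with 0 reads are drawn at 0.02. Most points lie below the line in sperm, and in uterus the 441 detected sequences are mainly ones of low testis level, above the line.

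In uterus 441 non-U sequences, 2.71% (2.47 to 2.97%), had any read, and 0 of the 108 with 1000 or more testis reads did. Their summed level was 0.162 of that in testis, or 4.14 per reads of the length class. Without the 669 sequences named above, 42 sequences with 443 reads were left, 0.269% (0.194 to 0.364%) of the others. Of the 374 with 10 or more uterus reads, 343 matched no annotated transcript. As ribosomal RNA was not complete among the references, fragments of it can be among the 374, which was not tested. The leading ones had 2128 uterus and 56 testis reads, and, at the small nucleolar RNA gene Gm23212 within the host gene Gas5 on chromosome 1 (chr1:161036683-161036709, plus strand), 2071 uterus, 199 testis and 1 sperm reads. The sequences seen in uterus were thus, with few exceptions, not those abundant in testis.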

How the data were processed

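The authors deposited raw counts: each table gives 1 read sequence per line with the count of that sequence, per the file headers. Adapters were joined to both RNA ends before amplification and sequencing, per the labels' protocols. The submitters' processing notes name mm9, while trimming and aligner were not given in the sources used here. Matching used Python 3.11.15, numpy 2.4.6 and scipy 1.17.1. References for exclusion were microRNA hairpins, ribosomal RNA, mitochondrial tRNAs and 46 nuclear tRNAs, the last and 5.8S written from general knowledge. Of the 46, 39 were covered over all bases by exact reads. No genome was used: genes and coordinates are those of GENCODE M21 (GRCm38), matched exactly on both strands without conversion to mm9. A neighbour shared at least 18 identical bases. RPM used all reads of a library. Shares have Clopper-Pearson, RPM Poisson and ratios conditional binomial intervals. Matching steps recovered 100% of 500 simulated reads each. Named sequences are the 10 with most testis reads with and without A at base 10, 5 in sperm, 3 in uterus, 5 without U-start neighbour, and the leading ones of the 8 sense and 4 antisense genes with most reads. Paired sequences, those of Piwil2 and Kat7 and the letters TGTAG were singled out after their values were seen. The members and lists were chosen with earlier results of these data known. Alternatives changed 1 choice at a time; added after seeing the data were leaving out sequences near a reference or near a form with more reads, leaving out those higher in sperm or uterus (except for levels in sperm and uterus), and, for opposite-strand pairs, distinct starts and leaving out the gene with most pairs.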

Additional observations from a re-analysis of the deposited data

How the results depend on the processing

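Each group had 1 library, so depth limits the low end: a non-U sequence with 10 testis reads at the same level in sperm would give fewer than 10 reads there. No paired analysis was possible because each group had 1 library. The alternative by genome span was not run, since no genome was used. The causes of the shifts below were not tested. The number of sequences was 34630, 7727 and 1355 with count minimums of 5, 20 and 100, with 40.6%, 42.4% and 47.0% having A at base 10. It was 7765 as distinct starts, with 40.1%, and by reads the share was 59.4%. The share without sequences 1 substitution from a form with more reads was 40.3%. Lengths of 29 to 31 nt for A at base 10, other bases and U-start made up 87.0%, 80.5% and 84.2% by reads, 67.5%, 63.5% and 64.9% with the window of 24 to 33 nt, and 82.9%, 81.8% and 80.4% at a minimum of 100. The gene match was 13.1% in sense or antisense, 13.2% with 1 substitution and 7.23% by reads. The neighbour share was 78.4% within 3 and 96.2% within 10 bases, 63.6% with a neighbour of at least the sequence's count, 72.0% with one of count 10 or more, 94.5% by reads and 92.9% at a minimum of 100. Detection in sperm was 67.0% by the first 20 bases, 65.5% at a minimum of 100 and 30.6% without sequences higher in sperm or uterus; in uterus it was 3.55%, 1.25% and 0.269%. The summed ratio of sperm to testis was 1.15 per reads of the class, so that its direction turned, 1.04 by the first 20 bases, which turned it as well, 0.0719 at a minimum of 100, 0.0489 without sequences higher elsewhere and 0.130 without those near a reference. In uterus it was 4.14, 0.663, 0.0160 and 0.000602 under the first 4 of these. The opposite-strand share was 5.76% by reads and 5.36% for U-start sequences; by distinct starts it was 8.38%, and without the gene with most paired sequences 9.24%.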
